A study of Mus musculus with 2 samples.

Results

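Trisomy of chromosome 8 is one of the karyotype changes that mouse embryonic stem cell cultures are best known for. A cell with an additional copy of a chromosome has more template for every gene on it, and the transcript level of a gene either follows the copy number or is held back by its regulation. Mouse chromosomes have their centromere at one end, so that position along chromosome 8 runs from the centromere (proximal) to the far telomere (distal). The genes described here are those of chromosome 8 with a unique molecular identifier (UMI, one tagged RNA molecule) in at least 5% of barcodes of at least 18000 UMIs in each of 2 single-cell libraries. Symbols starting with Rp, Psm, Nduf, Cox, Col, Lam, Gins or Dnaj were left out, whatever family the gene belongs to. A short list of single genes was left out as well. Of 32285 genes in the count tables, 1559 lie on chromosome 8, 669 of these passed detection, 31 were then left out by symbol and 638 remained as members. They include 615 protein-coding genes. The members were chosen by detection, and the members nearest the limit were Sgo2b, with a UMI in 5.03% of barcodes at time 1 and 9.69% at time 2, and Hydin with 5.10% and 6.49%. Just outside lay Fgl1 with 4.85% and 5.402%, and Zfp963 with 4.66% and 6.03%.

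The cells were C3H/HeSn-Paf/J mouse embryonic stem cells, from 9 lines derived separately from XX, XO and XY embryos, 3 of each, mixed into 1 pool. The pool was captured once at an initial time point (time 1) and once after 10 further passages (time 2). The cultures sat on gelatin and irradiated mouse embryonic fibroblast feeders in medium with serum and LIF, and no further treatment is named. Cells could not be traced to their line here, so each time point is 1 sample without replicates, feeder RNA can be present, and a class of cells may be made up largely of some of the lines. All comparisons below are therefore descriptions of 2 libraries with no test, and their 95% intervals cover counting error only.

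The libraries hold 1735810403 and 1843588321 UMIs at time 1 and time 2, and share 197 barcode sequences among cells of at least 18000 UMIs. After filters, removal of doublets and a gate on pluripotency markers, 22784 cells remained at time 1 and 24693 at time 2, with a median of 43212 and 50363 UMIs. All 11 pluripotency markers were detected in both, with a summed level of 7693 and 6516 counts per 1000000 UMIs (CPM). Dppa5a made up most of this, with 5743 and 3954 CPM, while Pou5f1 had 701 and 783, Tdh 125 and 407 and Klf4 50.3 and 108 CPM. The 7 fibroblast markers of the feeders summed to 14.7 and 9.53 CPM. Trophoblast, mesendoderm and endoderm markers summed to between 7.90 and 38.7 CPM, the 2-cell-like markers summed to 2.09 and 0.82 CPM, and none of these markers was at 0. The 5 primed epiblast markers summed to 382 CPM at time 1 and 199.6 CPM at time 2.

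The promoters of the members with the highest and the lowest response at time 2 among well-detected members, Dctd and Gabarapl2, are shown because these genes mark the ends of the range described below. Dctd (ENSMUSG00000031562, proximal) makes the deoxyuridine nucleotide from which thymidine is built, and Gabarapl2 (ENSMUSG00000031950, distal) is an ATG8 family protein of autophagosomes. Each window runs from 250 bases before to 50 after the RefSeq gene start, on the plus strand of GRCm38.p6, at chr8:48098842-48099141 for Dctd and chr8:111940453-111940752 for Gabarapl2. CG dinucleotides are in capitals.
Dctd: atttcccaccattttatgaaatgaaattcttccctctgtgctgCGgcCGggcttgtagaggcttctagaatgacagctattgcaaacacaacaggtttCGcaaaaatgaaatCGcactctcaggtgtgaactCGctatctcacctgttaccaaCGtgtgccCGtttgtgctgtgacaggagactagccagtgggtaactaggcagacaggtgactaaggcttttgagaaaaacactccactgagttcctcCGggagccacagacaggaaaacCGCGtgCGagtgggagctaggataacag
Gabarapl2: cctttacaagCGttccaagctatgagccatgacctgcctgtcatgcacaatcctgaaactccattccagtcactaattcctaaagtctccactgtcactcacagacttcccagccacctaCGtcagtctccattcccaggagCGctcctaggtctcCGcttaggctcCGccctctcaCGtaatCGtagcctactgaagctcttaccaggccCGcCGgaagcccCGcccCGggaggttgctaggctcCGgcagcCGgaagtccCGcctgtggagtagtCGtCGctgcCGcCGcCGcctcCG
The Dctd window holds 11 CG and the Gabarapl2 window 20. At least 1 CG was present in 94.6% of 32851 promoter windows of this length, with a median of 7 per window. Of the 638 members 446 matched the table, and no comparison of CG content with response was made. In these 446 the median was 22 per window. They passed the detection limit, while the 32851 windows were not selected by detection, so the 2 medians describe unlike sets.

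Each cell was given a proximal and a distal ratio. The members were divided in order along the chromosome into a proximal and a distal block of 319 genes each, which meet at 83.2 Mb (GRCm38). A block's ratio is its UMIs over those of 9653 detected genes on autosomes other than 1, 8 and 14, with the median cell of time 1 set to 1. Hmgb2 and Tomm20, each with over 3% of member UMIs, did not count towards the ratio. The typical cell had 498 proximal and 485 distal UMIs in the ratio at time 1, and 709 and 762 at time 2. Cells with a ratio from 1.3 to 1.7 are called gain cells here and those within 15% of 1 no-gain cells. A gene present in 3 copies in place of 2 would have a ratio of 1.5 if its level followed copy number.

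The proximal and distal blocks were high in the same cells. At time 1 both blocks were in the gain range in 4.71% of cells (95% Clopper-Pearson interval 4.43 to 4.99%) and both in the no-gain range in 86.1% (85.7 to 86.6%). At time 2 the shares were 47.2% (46.6 to 47.8%) and 19.6% (19.1 to 20.1%). Across cells the ratios of the blocks had a Pearson r of 0.75 at time 1 over 22784 cells and 0.86 at time 2 over 24693 cells. The 2 ratios of a cell share its reference UMIs. For odd and even members, which interleave along the whole chromosome, r was 0.74 and 0.88.

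Few cells had 1 block in the gain range and the other in the no-gain range, though many at time 2 had a block outside both ranges. A distal gain with the proximal block in the no-gain range was seen in 19 cells at time 1 (0.083%, interval 0.050 to 0.130%) and in 249 cells at time 2 (1.01%, 0.888 to 1.14%). The reverse was seen in 5 cells (0.022%) and 7 cells (0.028%). Odd and even members disagreed in this way in 0.044 and 0.097% of cells at time 1, and in 0.113 and 0.101% at time 2. These counts leave out cells with either block outside both ranges, which made up 9.08% of cells at time 1 and 32.1% at time 2. With them counted, 141 of 1213 cells with a distal gain at time 1 and 6019 of 17680 at time 2 had a proximal ratio that was not in the gain range. Of the cells with a proximal gain, 125 of 1197 and 432 of 12093 had a distal ratio that was not. The median proximal ratio of all cells with a distal gain was 1.43 at time 1 and 1.34 at time 2, close to the lower limit of the gain range. At time 2 the no-gain and gain peaks lay in the bins from 0.9 and 1.3 for the proximal block and in those from 1.0 and 1.45 for the distal block. With each library centred on its own lower peak, an alternative chosen after the data were seen, the 1.01% became 0.036% (9 cells), 13.7% of cells had a block outside both ranges, and 1221 cells had a distal gain with the proximal ratio not in the gain range. It was 0.032% with narrower class limits and no centring, and 3.05% with all autosomes but 8 as reference.

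**Figure D1:**
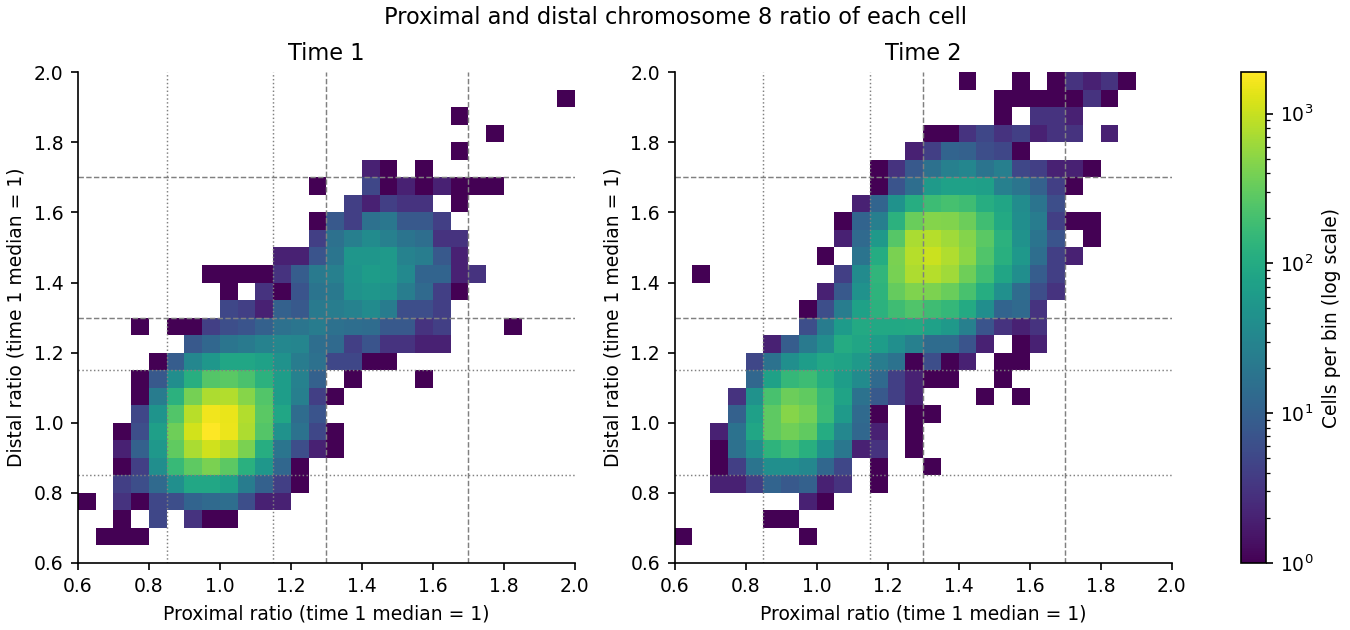
Distal against proximal chromosome 8 ratio of each cell at time 1 and time 2, as the number of cells per bin of 0.05 on a log colour scale. Dotted lines bound the no-gain range (within 15% of 1) and dashed lines the gain range (1.3 to 1.7). Cells form a lower and an upper cloud near the diagonal, and the lower cloud holds most cells at time 1 and the upper one most at time 2.

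To set each member against the dosage of its chromosome without using its own UMIs, distal members were compared between cells classed by the proximal block and proximal members between cells classed by the distal block. The proximal block gave 20486 no-gain and 1197 gain cells at time 1 and 5932 and 12093 at time 2. The distal block gave 20311 and 1213 cells, and 5230 and 17680 cells. The level of a gene is its summed UMIs per 1000000 reference UMIs (UPM) in a class of cells. Levels are compared between classes of cells, not between genes. In bulk sums of this kind, more cells with a transcript and more transcript per cell cannot be told apart.

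Most members were higher in gain cells, and by somewhat less than 1.5 times. The median member had 1.45 times its no-gain level at time 1 (log2 0.54) and 1.41 times at time 2 (log2 0.50). The middle range, from the lower to the upper quartile, ran from 1.29 to 1.59 times and from 1.253 to 1.53 times. At time 1, 269 of 319 distal members were at least 25% higher (84.3%), against 7.19% of the reference genes, and 252 of 319 proximal members (79.0%) against 6.74%. At time 2 these were 255 distal members (79.9%) against 5.1%, and 224 proximal members (70.2%) against 4.68%. At least 20% lower were 8 distal members in each library, against 11.3% of reference genes at time 1 and 11.1% at time 2. The same held for 6 proximal members in each library, against 11.7% and 16%. Cells were sorted by the level of the same chromosome, so these counts describe how far its genes move together.

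Gain cells differed from no-gain cells in more than chromosome 8. Taking the classes by the proximal block, high X dosage, an X ratio of at least 1.2 times that of the median cell with Y chromosome UMIs, was found in 46.6% of no-gain and 5.10% of gain cells at time 1, and in 46.2% and 3.01% at time 2. At time 2 a ratio of at least 1.2 was found for chromosome 1 in 36.1% of no-gain and 64.9% of gain cells, and for chromosome 14 in 9.12% and 26.8%. Pluripotency markers summed to 7762 CPM in no-gain and 6399 CPM in gain cells at time 1, and to 8632 and 5500 CPM at time 2. Dppa5a differed most, with 5816 and 4406 CPM at time 1 and 6035 and 3035 at time 2. Its fall was larger than that of the sum at time 1, and made up most of it at time 2. Nanog was lower in gain cells as well, with 121 and 80.0 CPM at time 1 and 161 and 91.4 at time 2. Pou5f1 (705 and 666, then 807 and 755 CPM), Tfcp2l1 and, slightly, Gdf3 were also lower in both libraries. Sox2, Esrrb and Klf4 were higher at time 1 and lower at time 2, Klf4 with 163 and 81.9 CPM at time 2. Dppa4, Tdh and Utf1 were higher in gain cells in both libraries, Utf1 with 508 and 578 CPM at time 1 and 499 and 521 at time 2. Primed epiblast markers summed to 394 and 262 CPM at time 1, and to 249.7 and 204 CPM at time 2. The fibroblast markers summed to 15.0 and 6.54 CPM at time 1 and to 17.5 and 5.53 CPM at time 2. Trophoblast markers summed to 40.2 and 16.2 CPM at time 1 and to 18.4 and 9.31 at time 2, and mesendoderm markers to 19.2 and 7.92 and to 19.2 and 13.7 CPM. Endoderm markers were lower in gain cells at time 1, with 9.55 and 5.23 CPM, and higher at time 2, with 6.18 and 10.6 CPM. The 2-cell-like markers summed to 1.77 and 0.70 CPM at time 1 and to 0.73 and 0.37 at time 2. The part of these cell states in the response of single members was not tested, but the response was also measured within subsets of cells. In low X dosage cells alone the median member was 1.47 times higher at time 1 and 1.38 times at time 2. In cells without a gain of chromosomes 1 and 14 it was 1.45 and 1.47 times higher.

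Proximal and distal members had close median responses. At time 2 the order of the blocks was not the same in medians and in sums. The blocks were measured in different cells, since each was set against classes made by the other. At time 2 the median distal ratio was 1.04 in no-gain cells by the proximal block. The median proximal ratio was 0.94 in those by the distal block, and the part of this in the comparison was not tested. The median proximal member was 1.45 times higher in gain cells at time 1 and the median distal member 1.47 times, and at time 2 they were 1.399 and 1.42 times higher. The proximal minus distal difference of the log2 medians was -0.025 and -0.022. The SD of single members was 0.28 (proximal) and 0.32 (distal) at time 1 and 0.29 and 0.28 at time 2. The sign of the difference was not the same in every alternative, which ranged from -0.047 to 0.0094 at time 1 and from -0.074 to 0.026 at time 2. In summed UMIs the blocks were close at time 1, and the proximal one was higher at time 2. At time 1 all proximal members together went from 25138 to 36102 UPM, which is 1.44 times (1.433 to 1.439), and all distal members from 23517 to 33962, also 1.44 times (1.441 to 1.447). At time 2 the proximal sum went from 23919 to 34221, which is 1.43 times (1.429 to 1.432), and the distal sum from 25237 to 35063, which is 1.39 times (1.388 to 1.391). Without Hmgb2 and Tomm20 the sums at time 2 were 1.41 and 1.39 times, so the proximal sum was higher there while the proximal median was lower.

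Along the chromosome in windows of 10 Mb, the median response lay between 1.33 and 1.52 times at time 1 and between 1.21 and 1.44 times at time 2. The lowest value in both libraries was that of 50 to 60 Mb, which holds only 11 members, and without it the lowest were 1.37 and 1.31 times. By summed UMIs the same window stood at 1.45 times at time 1 and at 1.54 times at time 2, the highest of the 13 windows there. A sum weights members by level, and this window holds Hmgb2, which was 1.46 and 1.56 times higher. With 2959 UPM it had the highest level of all members in no-gain cells of time 2. The 44 members from 90 to 100 Mb had the highest median at time 1, 1.52 times, and the 49 members from 20 to 30 Mb the highest at time 2, 1.44 times. The share of members at least 25% higher ran from 63.6 to 89.3% over the windows at time 1 and from 45.5 to 89.2% at time 2. Over 637 pairs of neighbouring members, the log2 response averaged over the libraries had a Pearson r of 0.046, so a member's response said little about that of its neighbour.

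**Figure D2:**
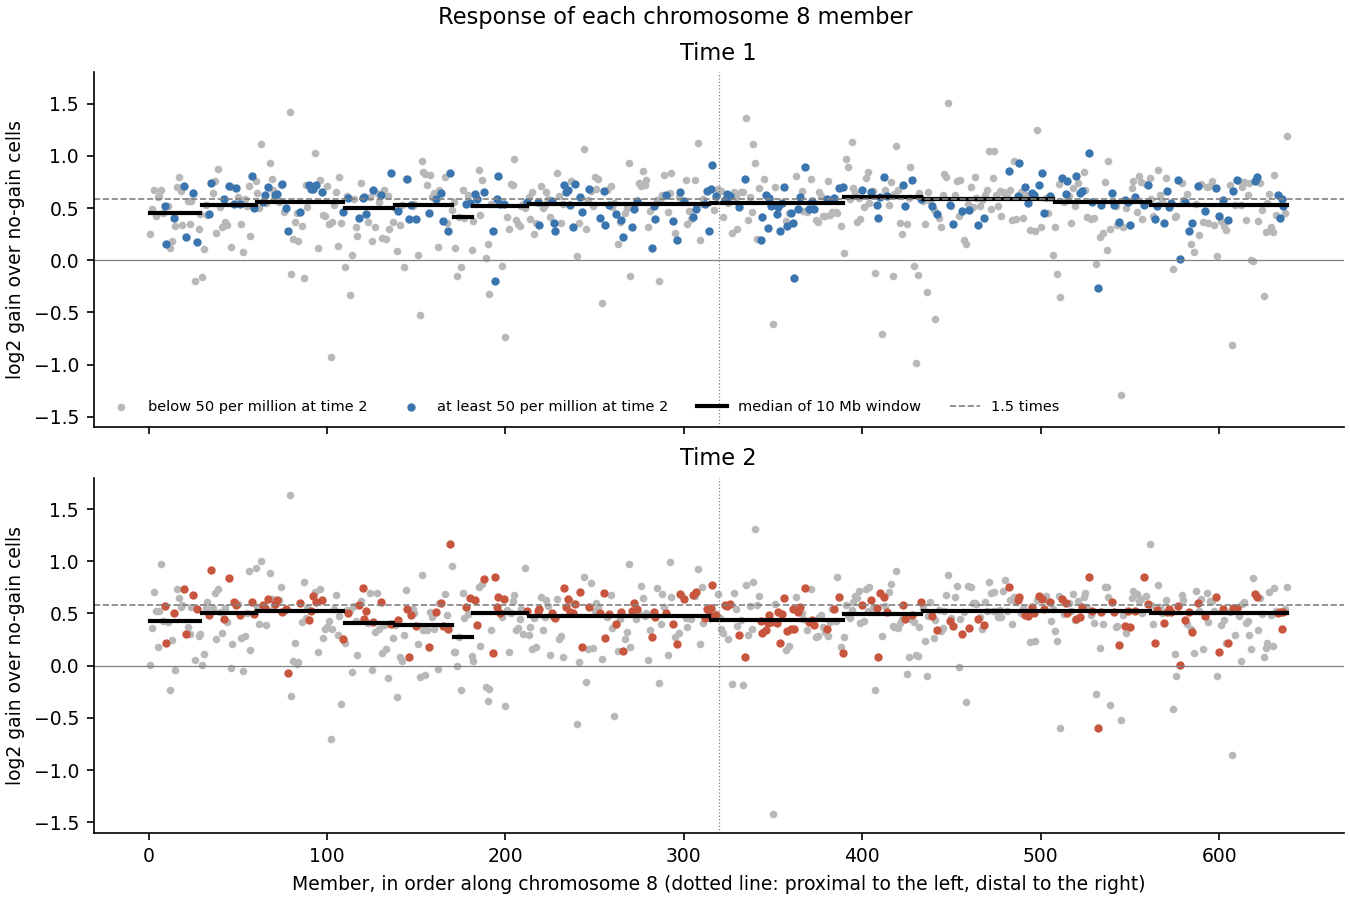
The log2 ratio of gain over no-gain cells for each of the 638 members in order along chromosome 8, with time 1 above and time 2 below. Coloured points have at least 50 UPM in no-gain cells of time 2, black bars are medians of 10 Mb windows and the dashed line marks 1.5 times. Window medians stay between 1.21 and 1.52 times over the whole chromosome.

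The responses of the members were alike in the 2 libraries. Over 638 members the log2 values of time 1 and time 2 had a Spearman rho of 0.66. Since 601 and 596 of them lay above 0, a shared sign, seen in 593, says little by itself. For the 206 members with at least 50 UPM in no-gain cells of time 2, rho was 0.61. Of these, 203 lay above 0 at time 1 and 204 at time 2, and Apela, Sfrp1 and Junb had opposite signs in the libraries. The libraries come from 1 pool of lines and the cells of each were classed by the same members. Spread fell with level, taken in no-gain cells of time 2, which is also the denominator of the time 2 response. The SD of the log2 response at time 1 was 0.44 in the lowest of 3 equal groups of members by this level. It was 0.198 in the middle and 0.19 in the highest, and at time 2 the SDs were 0.38, 0.24 and 0.19. The share at least 25% higher at time 1 was 67.6% in the lowest, 88.2% in the middle and 89.2% in the highest group. At time 2 these shares were 65.3, 73.1 and 86.9%. No share of reference genes by level was computed. The medians of these groups by level were close, from 1.43 to 1.47 times at time 1 and from 1.37 to 1.43 times at time 2. Groups by total exon length or genomic span had medians between 1.43 and 1.498 times at time 1 and between 1.36 and 1.43 times at time 2. The 23 non-coding members had medians of 1.54 and 1.46 times, and the 615 protein-coding ones of 1.45 and 1.403 times.

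**Figure D3:**
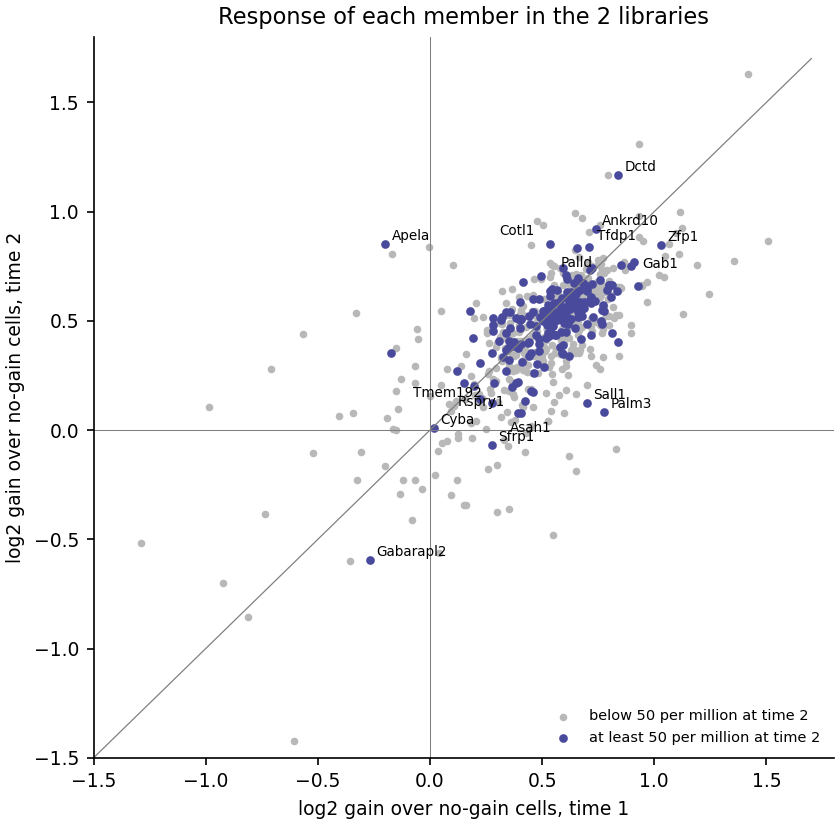
The log2 ratio of gain over no-gain cells at time 1 (x axis) and time 2 (y axis) for each member, with the 16 named genes labelled and the diagonal drawn. Most points lie in a cloud above 0 on both axes. Gabarapl2 lies below 0 on both, and Apela below 0 at time 1 only.

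The members with the highest response were picked at time 2, among those with at least 50 UPM, so that their time 1 values come from a library that did not pick them. Dctd had 54.5 UPM in no-gain and 97.5 in gain cells at time 1, and 52.8 and 118 at time 2. It was 1.79 times higher in gain cells at time 1 (log2 0.84, interval 0.79 to 0.89) and 2.24 times at time 2 (log2 1.17, 1.13 to 1.1999). Its no-gain levels were close in the libraries, and its gain levels lay above them in both.

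Gab1, Tfdp1, Palld, Zfp1 and Ankrd10 were above 1.5 times in both libraries, and Cotl1 at time 2. Gab1, a docking protein of receptor tyrosine kinases, went from 73.6 to 138 UPM at time 1 (1.88 times) and from 70.9 to 120.9 at time 2 (1.71 times). Tfdp1, the dimer partner of E2F factors, went from 177 to 289 (1.63 times) and from 158 to 283 (1.79 times). Palld, an actin-associated scaffold, went from 66.0 to 104 (1.58 times) and from 92.7 to 165 (1.78 times). Zfp1 went from 44.0 to 89.8 (2.04 times) and from 53.9 to 96.8 (1.797 times). Ankrd10 went from 93.3 to 156 (1.67 times) and from 113 to 213 (1.89 times). Cotl1, an actin-binding protein, went from 71.6 to 104 (1.45 times) and from 66.3 to 119.7 (1.81 times).

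In low X dosage cells the ratios of these 7 members at time 2 were smaller than over all cells, and above 1.5 times in each. They were 1.99 times for Dctd, 1.76 for Palld, 1.65 for Gab1, 1.61 for Ankrd10, 1.57 for Tfdp1 and 1.51 for both Zfp1 and Cotl1. At time 1, which did not pick them, they ran from 1.46 times for Ankrd10 to 2.09 times for Zfp1. There they were larger than over all cells for Gab1 (2.02), Zfp1, Palld (1.59) and Cotl1 (1.49). They were smaller for Ankrd10 and Tfdp1 (1.55), and for Dctd by less than the rounding. In high X dosage cells, which include few gain cells, the ratios of these 7 members at time 2 ran from 1.57 times for Gab1 to 2.76 times for Cotl1. At time 1, with only 61 or 76 gain cells of high X dosage, they ran from 1.149 times for Palld to 1.705 times for Ankrd10. Palld, Tfdp1 and Zfp1 were below 1.5 times there. For Palld the interval of the gain level, 63.3 to 89.6 UPM, held the no-gain level of 65.8.

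Apela, the secreted ligand of the apelin receptor that embryonic stem cells make, was the other one of the 8 members picked for a high response at time 2. It did not have the same direction in the libraries over all cells. It had 115 UPM in no-gain and 99.9 in gain cells at time 1, a ratio of 0.87, and 106 and 192 at time 2, a ratio of 1.804. Its level differed with X dosage. Among no-gain cells it was 161 in low and 65.0 in high X dosage cells at time 1, and 154 and 59.3 at time 2. Within low X dosage cells the gain over no-gain ratio was 0.63 at time 1 and 1.252 at time 2. Within high X dosage cells it was 1.34 at time 1, with 76 gain cells, and 3.00 at time 2, with 550. The direction was thus alike in the libraries in high X dosage cells and not in low ones. At time 2 the high X dosage gain cells had 178 UPM. This was nearer to the 192 of low X dosage gain cells than to the 59.3 of high X dosage no-gain cells. Cells could not be traced to their line, so a ratio within an X dosage class may also hold a difference between lines, which was not tested. In Nanog-positive cells without early lineage markers the log2 ratio was 0.29 at time 1 and 1.1995 at time 2, so the directions were alike there too.

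Among members with at least 50 UPM, the lowest response at time 2 was that of Gabarapl2, and its direction over all cells was not that within low X dosage cells. Over all cells it had 382 UPM in no-gain and 318 in gain cells at time 1, a ratio of 0.83 (log2 -0.27, interval -0.29 to -0.24). At time 2 it had 614 and 406, a ratio of 0.66 (log2 -0.60, -0.61 to -0.58). It was the only member with at least 50 UPM that was at least 20% lower at time 2. No-gain cells of high X dosage had more of it, 512 against 262 in low X dosage cells at time 1 and 881 against 355 at time 2. Among low X dosage cells alone, Gabarapl2 went from 262 to 308 UPM at time 1, 1.18 times, and from 355 to 406 at time 2, 1.14 times. Both values are above 1 and below the median of 1.47 and 1.38 times in those cells. Gain cells of high X dosage were few, 61 at time 1 and 364 at time 2, with 534 and 426 UPM. At time 2 their level was nearer to the 406 of low X dosage gain cells than to the 881 of high X dosage no-gain cells. Within high X dosage cells the ratio was 1.04 at time 1 and 0.48 at time 2, and at time 1 the interval of the gain level, 497 to 572 UPM, held the no-gain level of 512.

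**Figure D4:**
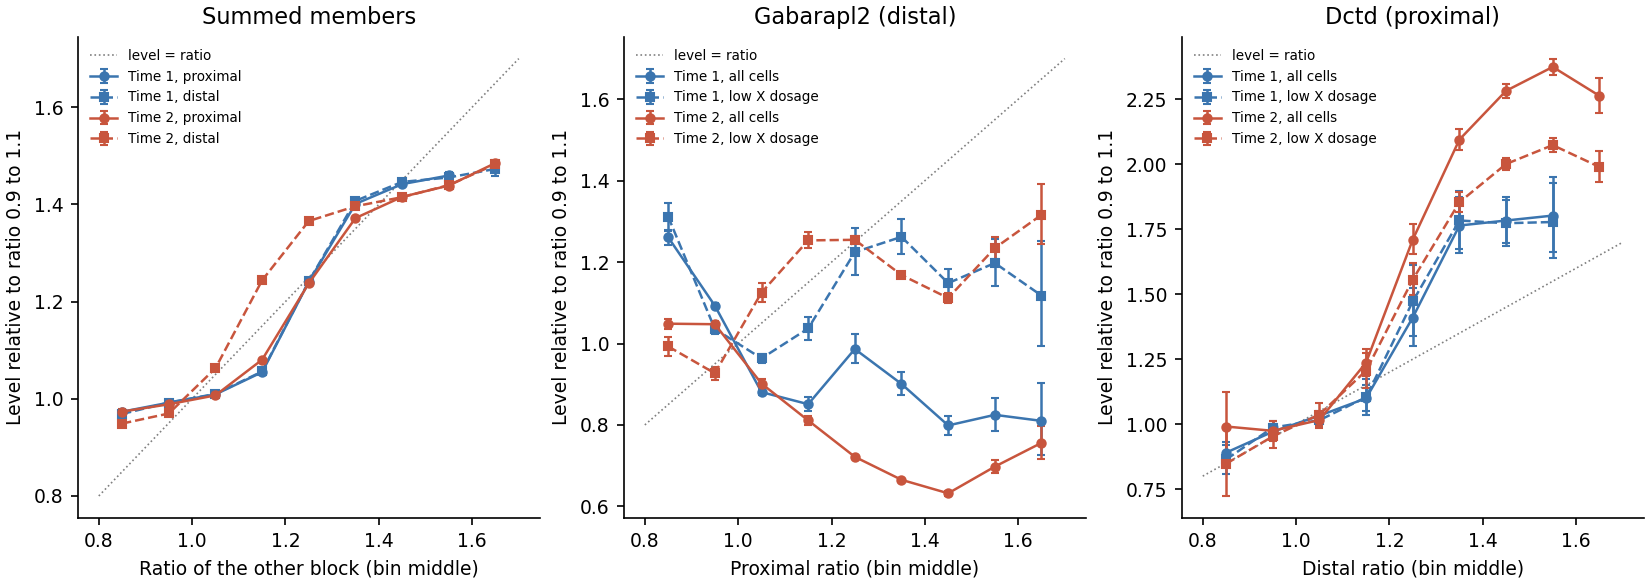
Level relative to cells with a ratio of 0.9 to 1.1, against the ratio of the block that does not hold the genes, in bins of 0.1 with at least 50 cells. Bars are 95% Poisson intervals of the UMIs and the dotted line marks a level equal to the ratio. Summed members lie between 1.37 and 1.49 times in the gain range, Gabarapl2 lies below 1 there in all cells and above 1 in low X dosage cells, and Dctd is at 1.76 times or more in both libraries.

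The level moved with the ratio in steps of 0.1, as the plot of levels by ratio shows. At time 1 the proximal members together were at 0.99 times in cells of distal ratio 0.9 to 1.0, at 1.05 in those of 1.1 to 1.2, at 1.24 in those of 1.2 to 1.3 and at 1.44 in those of 1.4 to 1.5. Distal members by the proximal ratio stood at 0.99, 1.06, 1.24 and 1.45 times. The steep part lies between the no-gain and gain peaks, and within either range the sum moved less than the ratio: from a distal ratio of 1.3 to 1.4 to one of 1.5 to 1.6, proximal members went from 1.401 to 1.46 times. At time 2 they went from 1.37 to 1.44 times over the same bins.

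At time 2 the other members picked for a low response had higher ratios in low X dosage cells than over all cells, though Cyba by less than the rounding. Sfrp1, a secreted Wnt antagonist, had 30.7 UPM in no-gain and 37.1 in gain cells at time 1 (1.21 times), and 90.8 and 86.6 at time 2 (0.95 times). In low X dosage cells it was 1.21 and 1.87 times higher. Sall1, a zinc finger transcription factor of stem cells, was 1.63 times higher at time 1 and 1.09 times at time 2, and 1.82 and 1.38 times in low X dosage cells. Palm3, of the paralemmin family, had 1.713 and 1.06 times over all cells and 1.87 and 1.43 times in low X dosage cells. Asah1 (acid ceramidase), Tmem192 (a lysosomal membrane protein) and Rspry1 had between 1.21 and 1.32 times at time 1 and between 1.06 and 1.09 times at time 2. Their low X dosage ratios at time 2 were 1.24, 1.34 and 1.16 times. In high X dosage cells at time 2 Sfrp1 was at 0.53, Palm3 and Sall1 at 0.76, Rspry1 at 0.94, Tmem192 at 1.03 and Asah1 at 1.07 times. At time 1, which did not pick them, all of these were above 1 in high X dosage cells, with only 61 or 76 gain cells. Rspry1 was at 1.58, Sfrp1 at 1.49, Asah1 at 1.36, Sall1 at 1.296, Palm3 at 1.28 and Tmem192 at 1.165 times. For Tmem192 the interval of the gain level, 77.9 to 106.8 UPM, held the no-gain level of 78.5.

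Cyba, the p22phox subunit of NADPH oxidases, was near 1 over all cells and higher within high X dosage cells. It had 199.7 UPM in no-gain and 202 in gain cells at time 1, 1.01 times, and 96.8 and 97.3 at time 2, 1.01 times. Among low X dosage cells it was at 1.19 and 1.01 times. Among high X dosage cells it went from 241 to 426 UPM at time 1, 1.76 times, and from 102 to 270 at time 2, 2.64 times. Its values over alternatives ranged in log2 from -0.11 to 0.25 at time 1 and from -0.16 to 0.34 at time 2.

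Within low X dosage cells most members were higher in gain cells as well. At time 1, 265 of 319 distal members were at least 25% higher against 10.5% of reference genes, and 243 of 319 proximal members against 10.3%. At time 2 these were 267 distal members against 2.5%, and 237 proximal members against 3.74%. At least 20% lower at time 1 were 8 distal members against 11.8% and 15 proximal members against 12.2%. Of the 204 members with at least 50 UPM there, 203 lay above 1 at time 2, with Tpm4 at 0.95 as the exception, and none was at least 20% lower. At that level Apela and Junb were at least 20% lower at time 1. At time 2, 1 distal member was at least 20% lower against 7.58% of reference genes, and 10 proximal members against 13.2%, all with lower levels. They are named after their values were seen, as were Tpm4 and Junb. Zfp703, a transcriptional repressor, had 0.48 times, Pdlim3 0.57, Lzts1 0.61, Ccdc194 0.70, Mfap3l 0.72, Efnb2 0.73, Slc5a5 0.76, Zdhhc2 0.76, Irs2 0.77, Rnf122 0.78 and the distal Acta1 0.56.

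The members' roles did not separate their responses much. The 9 lists, with 178 members in all, had medians between 1.35 and 1.53 times at time 1 and between 1.35 and 1.49 times at time 2, beside 1.45 and 1.41 times over all members. The share of a list at least 25% higher, to be read beside 81.7% of all members at time 1 and 75.1% at time 2, ran from 66.7 to 100% in both libraries. No test of these differences was made.

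Among nuclear genes, 33 of 38 transcription and chromatin members were at least 25% higher at time 1 (86.8%) and 30 at time 2 (78.9%), near the shares over all members, and 2 were lower in each. Hmgb2, a chromatin protein of dividing cells, went from 3061 to 4467 UPM at time 1 (1.46 times) and from 2959 to 4626 at time 2 (1.56 times). Smarca5, the ISWI remodelling ATPase, was 1.6001 and 1.47 times higher, and Ankrd11, a chromatin regulator, 1.64 and 1.51 times. Both members that were lower in each library, Zfp703 and Nfix, had under 5 UPM in both classes of cells. In low X dosage cells Zfp703 was at 0.45 and 0.48 times, while Nfix was at 1.18 and 0.99 times there, against 0.66 and 0.37 over all cells. Of 24 cell cycle and DNA repair members, 21 (87.5%) and 19 (79.2%) were higher and none lower. Rnaseh2a, a subunit of the enzyme that removes ribonucleotides from DNA, was 1.37 and 1.28 times higher, and Anapc10, of the anaphase promoting complex, 1.21 and 1.397 times. Of the 4 telomere members, 3 and 4 were higher. Acd (TPP1 of shelterin) had 1.42 and 1.51 times, Terf2 (a telomere repeat binding protein) 1.54 and 1.42 times, and Tnks (tankyrase) 1.47 and 1.28 times.

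Members that process or degrade mRNA had the highest list median in both libraries, by a small margin. Of these 20 members, 16 were at least 25% higher at time 1 (80%) and 19 at time 2 (95%), with medians of 1.53 and 1.49 times and none lower. Lsm4, of the ring that binds U6 RNA and decaying mRNA, went from 671 to 1022 UPM (1.52 times) and from 621 to 1014 (1.63 times). Ddx39, an RNA helicase of mRNA export, had 1.54 and 1.505 times and Nudt21, a subunit of cleavage factor I, 1.59 and 1.4997 times. All 16 ribosome assembly and translation members were higher at time 1, and 15 at time 2 (93.8%), with medians of 1.51 and 1.42 times. Nip7 and Mak16, both of large subunit assembly, had 1.63 and 1.399 times and 1.51 and 1.42 times. Eif4ebp1, which restrains cap-dependent translation, had 1.38 times at time 1 and 1.197 times at time 2, where its level went from 1423 to 1703 UPM.

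Of 23 mitochondrial and metabolic members, 21 were higher at time 1 (91.3%) and 19 at time 2 (82.6%), with none lower. Tomm20, a receptor of mitochondrial protein import, had 1.55 and 1.42 times, Aprt, which salvages adenine, 1.21 and 1.43 times, and Slc25a4, the ADP/ATP carrier, 1.37 and 1.13 times. Of 29 membrane traffic and lysosome members, 27 (93.1%) and 23 (79.3%) were higher, and Gabarapl2 alone was lower, at time 2. Map1lc3b, like Gabarapl2 an ATG8 family protein and in the same distal block, went from 503 to 642 UPM (1.28 times) and from 508 to 673 (1.32 times). Use1, of retrograde transport to the endoplasmic reticulum, had 1.44 and 1.41 times.

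Of 12 stress and apoptosis members, 10 were higher at time 1 (83.3%) and 9 at time 2 (75%), close to the shares over all members. Prdx2, a peroxidase, had 1.28 and 1.45 times, Usp10, a deubiquitinase, 1.64 and 1.51 times, and Calr, a chaperone of the endoplasmic reticulum, 1.22 and 1.16 times. Gdf15, a secreted stress factor, was the lower one of the list at time 2, with 5.72 UPM in no-gain and 3.88 in gain cells. Its direction turned in low X dosage cells, where it was 2.12 times higher at time 1 and 1.73 times at time 2. Of 12 signalling members 8 (66.7%) were higher in each library, against 81.7 and 75.1% of all members, with the lowest list medians, 1.35 times in both. Csnk2a2, a catalytic subunit of casein kinase 2, had 1.44 and 1.36 times and Ppp2cb, a catalytic subunit of protein phosphatase 2A, 1.32 and 1.4992 times.

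**Figure D5:**
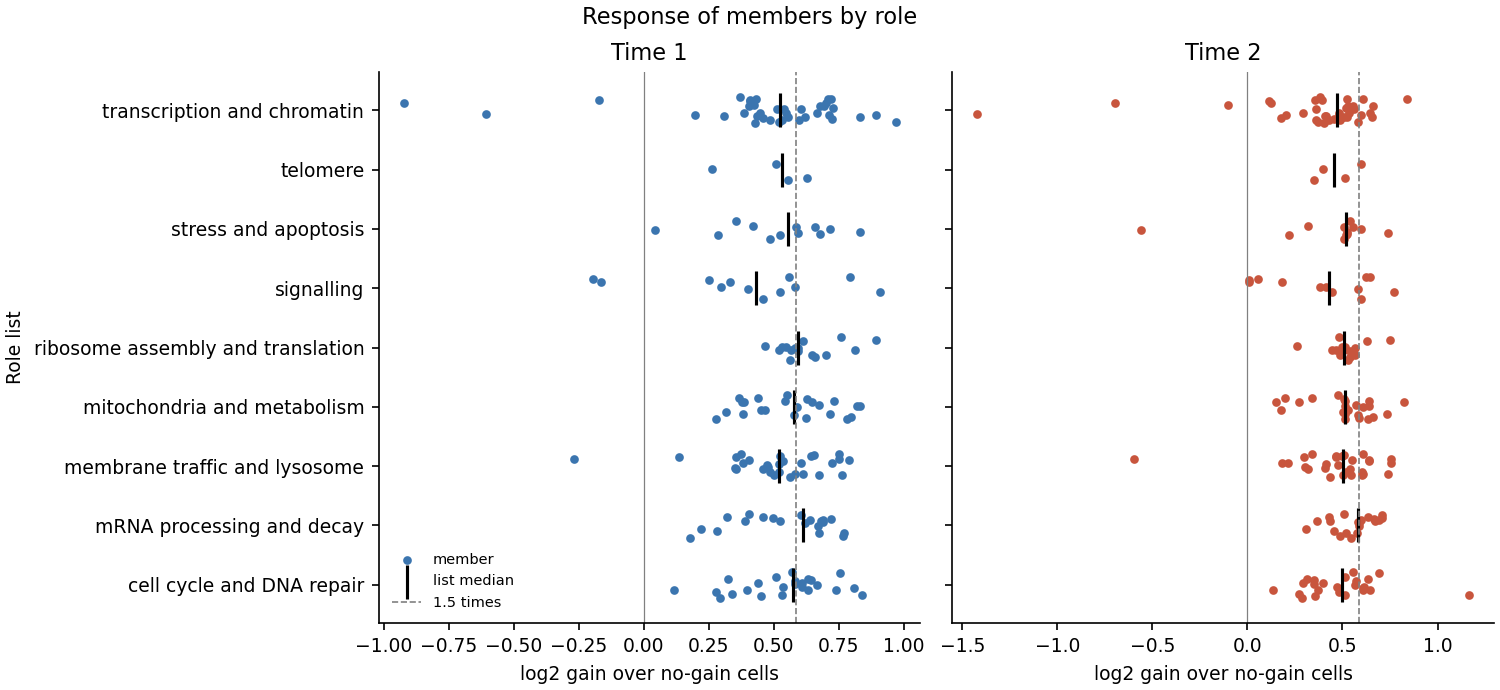
The log2 ratio of gain over no-gain cells for members of each role list at time 1 and time 2, with the list median as a black bar and 1.5 times as a dashed line. List medians lie between 1.35 and 1.53 times, and the points far to the left are single members of low level and Gabarapl2.

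The same measure was taken on chromosomes 1 and 14, the only other ones measured here, and gave smaller or like values. For 643 genes of chromosome 1 the median was 1.37 times at both times, with 66.7 and 66.3% of genes at least 25% higher. For 403 genes of chromosome 14 it was 1.36 times at time 1, where one block gave only 70 gain cells, and 1.41 times at time 2, with 66.5 and 76.9% of genes. Chromosome 8 had 1.45 and 1.41 times with 81.7 and 75.1%. No test of these differences was possible with 1 library per time point, and the chromosomes differ in how many members set the class of a cell.

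The median member was higher at time 2 than at time 1 over all cells, and was not in no-gain cells alone. Over all cells, 262 of 638 members (41.1%) were at least 25% higher at time 2 than at time 1, against 12.9% of reference genes, and 110 (17.2%) were at least 20% lower, against 33.2%. The median member was 1.17 times higher (log2 0.22), while the median reference gene was at log2 -0.13, and the member values are to be read relative to that shift. In no-gain cells alone the median member was at log2 -0.077. For the 206 members with at least 50 UPM, picked by their time 2 level in these same cells, it was 0.087, with 43 higher and 19 lower. Such a pick favours members that are higher at time 2, and no reference genes were picked alike. Over all 638 members 98 were higher and 195 lower. Among these, 40 of 319 proximal members (12.5%) were higher, against 12.2% of reference genes, and 115 (36.1%) lower against 27.8%. Of the distal members 58 (18.2%) were higher against 12.1%, and 80 (25.1%) lower against 28.8%. The medians were log2 -0.14 for proximal and -0.029 for distal members, beside -0.092 and -0.097 for the reference genes in the same cells. Proximal members of no-gain cells were thus lower and distal members higher than the reference. The peaks of the cell ratios at time 2 lie in the same direction. They come from UMIs of the same members over the same reference genes, so they are not a separate result.

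Some members moved far between libraries in no-gain cells while others did not. Sfrp1 was 2.96 times higher at time 2 in no-gain cells and 2.33 times in gain cells, and Gabarapl2 1.61 and 1.28 times. Cyba was at 0.48 times in both classes. The rise of Sfrp1 in no-gain cells was mostly in those of high X dosage, from 31.2 to 135 UPM, against 30.2 to 46.8 in low ones. Gabarapl2 went from 512 to 881 in high and from 262 to 355 in low X dosage no-gain cells. Dctd, at 0.97 times in no-gain and 1.22 times in gain cells, and Tfdp1, at 0.89 and 0.98 times, had no-gain levels much closer to those of time 1. For Dctd 1.78 times and for Tfdp1 1.37 times as much was found at time 2 over all cells, in a library with far more gain cells.

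Some of the named genes overlap another gene of the annotation on the opposite strand: Palld, Gab1, Palm3, Rspry1, Ankrd11, Ddx39, Rnaseh2a, Anapc10, Map1lc3b, Mak16, Prdx2, Junb, Acd, Tnks, Zfp703 and Nfix. Rnaseh2a also overlaps a gene on its own strand. The strand setting of the counting is not given in the sources used here, so reads of such pairs may not be told apart.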

How the data were processed

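For 2 libraries (10x Chromium version 3.1, per the labels' protocols) the deposited tables hold raw UMI counts of each gene in each barcode, as whole numbers, made by the authors with Cell Ranger 6.1.2 and bcl2fastq 2.20.0.422 on mm10 (GRCm38), per the submitters' processing notes. Positions came from GENCODE M21 (GRCm38), which matched 32235 gene identifiers. Cells had at least 18000 UMIs and 1000 genes, at most 10% mitochondrial UMIs, at least 5 Pou5f1 UMIs, and fewer UMIs of other marker classes than of pluripotency markers. Scrublet (scanpy 1.11.5) was run per library. On untransformed counts it marked no cell, and on log-transformed counts its own threshold marked 824 and 368 cells. The 10% of cells with the highest scores were therefore removed (2665 and 2894 with ties), a threshold chosen after seeing this. Python 3.11.15, numpy 2.4.6, scipy 1.17.1 and pandas 2.3.3 were used, and edgeR 4.0.16 (R 4.3.3) for an alternative scaling (TMM) only. The script that computes gene ratios was tested on simulated data.

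The members, the role lists and the markers were chosen with earlier results of these data known. The named genes are the 8 highest and 8 lowest responses at time 2 among members with at least 50 UMIs per 1000000 reference UMIs (UPM) in no-gain cells, the 3 most abundant of each role list, and 2 genes on either side of the detection limit. A gene that this rule names is not reported here. Cells were kept by a marker gate and not by clusters. The alternatives changed the class limits, the split, the reference, the scaling, the doublet filter, the gate, depth and the detection limit. The automatic doublet threshold and the centring on lower peaks were added after the data were seen. With 1 library per group no test was made. Intervals are exact Poisson, binomial or Clopper-Pearson at 95%.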

Additional observations from a re-analysis of the deposited data

Results flagged for a closer look

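Of the 638 members, 45 had a response of opposite directions in the libraries. The share of reference genes with opposite directions was not computed, so this count is not a result about the members. The 7 given here are those that had at least 50 UPM in no-gain cells of time 2, or that were at least 25% higher in gain cells of one library and at least 20% lower in those of the other. The difference between the libraries was not tested, since each time point is 1 sample. Apela had a log2 ratio of gain over no-gain cells of -0.20 at time 1 and 0.85 at time 2. Sfrp1 had 0.28 and -0.068, and Junb, an AP-1 transcription factor, -0.17 and 0.35. Adrb3, a beta adrenergic receptor, had 0.35 and -0.36, with 21.9 UPM in no-gain cells at time 1 and 32.5 at time 2. In low X dosage cells the directions were alike for Adrb3 (1.56 and 1.21 times), Ushbp1 (2.35 and 1.23), Sfrp1 (1.21 and 1.87) and Rrad (0.49 and 0.84). They were not for Apela (0.63 and 1.252), Junb (0.68 and 1.12) and Fut10 (0.54 and 1.07). In high X dosage cells, which include few gain cells, Adrb3 was at 1.99 and 0.69 times, Ushbp1 at 1.37 and 0.67, Sfrp1 at 1.49 and 0.53, and Apela at 1.34 and 3.00. Fut10 was at 1.97 and 2.006 times there and Rrad at 1.93 and 9.77, on 6 and 11 UMIs in gain cells at time 1. The remaining members had low levels. Ushbp1, with 10.2 and 7.51 UPM in no-gain cells, had a log2 ratio of 0.55 and -0.48. Fut10, with 3.45 and 2.34 UPM, had -0.33 and 0.54. Rrad, with 5.73 and 3.11 UPM, had -0.57 and 0.44.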

How the results depend on the processing

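Over up to 19 alternatives, the median response kept its direction in both libraries, with log2 values from 0.50 to 0.56 at time 1 and from 0.44 to 0.56 at time 2. The time 2 extremes were 0.44 with levels over all UMIs and 0.56 in cells without gains of chromosomes 1 and 14. The number of members at least 25% higher ranged from 417 to 523 at time 1 and from 378 to 513 at time 2. The lowest came with detection in 20% of barcodes, which left 475 members. With a limit of 1.4 times in place of 25%, 382 and 328 members were higher, and with a limit lower than 25%, 565 and 537. Classed by the proximal and the distal block, 2.25 and 2.14% of reference genes passed 1.4 times at time 1. At time 2 these were 1.44 and 1.52%. The lower limit was passed by far more reference genes, 17.5 and 16.7% at time 1 and 13.6 and 11.3% at time 2. The proximal minus distal difference at time 2 moved to -0.074 with narrower class limits. The log2 median of time 2 over time 1 in all cells was 0.15 without gains of 1 and 14, 0.29 with detection in 20% of barcodes and 0.31 with TMM scaling, which also gave -0.025 in no-gain cells.

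Shares of cells with a gain of 1 block only moved most. The distal-only share at time 1 was 0.013% with narrower limits, 0.039% in low X dosage cells, 0.140% when cells were thinned to 18000 UMIs and 0.132% for odd and even members centred on the lower peak. At time 2 it was 0.032% with narrower limits, 1.697% with the split at the middle of the span, 3.05% with all autosomes but 8 as reference, 0.733% with Hmgb2 and Tomm20 kept, 1.23% with doublets kept, 0.456% without gains of 1 and 14, 2.93% thinned, 1.22% at the automatic doublet threshold, 0.036% centred on the lower peak, 0.101% for odd and even members and 0.053% for these centred. The proximal-only share at time 1 was 0% with narrower limits, 0.184% with the other split, 0.083% thinned and 0.057% for odd and even members centred. At time 2 it was 0.0081% with narrower limits, 0.121% with the other split, 0.093% thinned, 0.089% centred, 0.113% for odd and even members and 0.138% for these centred. The cause was not tested.

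For the 16 named genes, 437 of 544 alternative values stayed within the median counting interval of a member around the reported value, and 106 moved by more. The other one turned from at least 20% lower to higher: Gabarapl2 at time 2, with log2 0.19 in low X dosage cells. Counting any change of sign, 23 values turned, in 10 of 32 gene and library pairs. Cyba, near 0 at both times, turned in 3 and 10 of 17 alternatives. Low X dosage cells also turned Gabarapl2 at time 1 (from -0.27 to 0.23) and Sfrp1 at time 2 (from -0.068 to 0.90). Nanog-positive cells without early lineage markers turned Apela at time 1 (from -0.20 to 0.29) and Sfrp1 at time 1 (from 0.28 to -0.078). Palm3 and Sall1 at time 2 turned in 2 alternatives each and Rspry1 in 1. Sfrp1 at time 2 ranged from -1.20 to 0.90. No paired analysis was possible because each group is 1 library. Depth limits single members: the median 95% interval of a response reached 0.082 in log2 to either side at time 1 and 0.051 at time 2.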

Other observations

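Of the reference genes classed by the distal block at time 2, 16% were at least 20% lower in gain cells and 4.68% at least 25% higher, with a median log2 of -0.033. At time 1 the same classes gave 11.7 and 6.74%, with a median of 0.017.

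Doublets removed by score had a median of 75788 UMIs at time 1 and 94693 at time 2, beside 43210 and 50148 in the cells that stayed.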
